A study of Homo sapiens and Mus musculus with 6 samples.

Results

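In human GM12878 cells and in mouse embryonic stem cells (mESCs), 377 pairs of promoters were joined by a strong chromatin contact between the same 2 genes. The contacts were measured by promoter Capture Hi-C (CHi-C), which captures ligation products of HindIII restriction fragments that carry annotated promoters (baits) and sequences them with the fragment at the other end. Each call carries a CHiCAGO score, which rises as the read count of a fragment pair exceeds the count that its distance and its technical noise would give. The score is also weighted by distance, so that long-range pairs need stronger evidence. Fragment pairs below a score of 5 are not in the lists. A gene pair was kept where both genes lay on the same chromosome, a call joined a fragment named for each gene, and the highest score of the pair was 10 or more in both lists, and pairs with a symbol starting HIST were left out. Genes of the 2 species were matched by their symbol in capitals. Of 54320 such gene pairs called in GM12878 cells and 28872 called in mESCs, 3513 were called in both, and the 377 members were 10.7 percent of these. A score of 10 or more was reached by 33.5 percent of the 3513 in GM12878 cells and by 29.1 percent in mESCs. The members were chosen by the scores of both lists, so the scores, read counts, distances and counts of members below are a description and none was tested.

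The human list used 3 biological replicates of GM12878, an untreated B-lymphoblastoid cell line from 1 donor, and the mouse list 2 biological replicates of untreated J1 mESCs of the 129S4/SvJae strain, grown on feeder cells that were removed before harvest. An untreated mESC Hi-C library of the same strain, made without capture, gave a list of 25-kb bin pairs. The authors merged the replicates before the calls were made, so that each score and read count is a single value without a spread, and the lists do not give the sequencing depth behind it. Each species was represented by 1 cell type, and differences between the lists in species, cell type and depth cannot be told apart. The lists hold contacts and no expression levels, so that the labelled cell types could not be checked against marker genes. The names on the mouse fragments were joined by other separators than those on the human fragments, and the members were found with each list's own separators. Splitting at semicolons alone gave 68 pairs, all of them among the 377.

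Promoters of neighbouring active genes often lie close to each other in the nucleus, and CHi-C reports such contacts as a bait joined to another bait. Capture from a promoter also reads a contact from either side, because both fragments of a promoter pair can be baited. Gene order is kept over long blocks between human and mouse, so that most neighbours of a human gene have their counterpart near the mouse gene.

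The sequences of the promoters are shown for CD2 with TTF2 and for INTS3 with NPR1, which were leading pairs of top-ranked loci and had stretches before the start of both genes that were free of annotated exons in both species. CD2 encodes an adhesion molecule of T cells and natural killer cells, and TTF2 a transcription termination factor. INTS3 encodes a subunit of the Integrator complex, which processes RNA at active genes, and NPR1 the receptor of atrial natriuretic peptide. Each line gives the 200 bases before the annotated start, 5′ to 3′ on the strand of the gene. A single start was taken for each gene, whichever fragment was joined. A window can thus lie outside the fragment of the contact. In the human build hg19 these lie at chr1:117296852-117297051 on the plus strand (CD2), chr1:117602748-117602947 on the plus strand (TTF2), chr1:153700326-153700525 on the plus strand (INTS3) and chr1:153650964-153651163 on the plus strand (NPR1). In the mouse build mm9 they lie at chr3:101091863-101092062 (CD2), chr3:100773587-100773786 (TTF2), chr3:90237559-90237758 (INTS3) and chr3:90269789-90269988 (NPR1), all on the minus strand. Capitals mark matches on either strand to the letters CCAAT of the CCAAT box, GGGCGG of the GC box, CCGGAAG of the ETS core and TATAAA of the TATA box.
CD2 human: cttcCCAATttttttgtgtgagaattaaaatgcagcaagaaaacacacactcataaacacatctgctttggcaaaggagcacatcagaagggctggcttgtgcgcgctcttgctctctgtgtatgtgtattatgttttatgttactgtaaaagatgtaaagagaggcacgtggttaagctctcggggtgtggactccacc
CD2 mouse: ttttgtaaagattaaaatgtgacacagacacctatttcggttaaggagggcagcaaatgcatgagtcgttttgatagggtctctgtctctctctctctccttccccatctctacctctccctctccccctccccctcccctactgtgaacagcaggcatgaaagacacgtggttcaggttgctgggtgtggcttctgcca
TTF2 human: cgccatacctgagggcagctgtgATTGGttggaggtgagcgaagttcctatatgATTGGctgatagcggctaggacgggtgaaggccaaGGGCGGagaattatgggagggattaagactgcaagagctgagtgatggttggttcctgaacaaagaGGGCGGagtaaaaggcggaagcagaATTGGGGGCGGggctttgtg
TTF2 mouse: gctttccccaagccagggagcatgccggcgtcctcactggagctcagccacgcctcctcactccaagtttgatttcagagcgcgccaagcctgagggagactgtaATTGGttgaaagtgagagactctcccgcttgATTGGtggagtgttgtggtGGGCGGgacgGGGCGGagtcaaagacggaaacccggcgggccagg
INTS3 human: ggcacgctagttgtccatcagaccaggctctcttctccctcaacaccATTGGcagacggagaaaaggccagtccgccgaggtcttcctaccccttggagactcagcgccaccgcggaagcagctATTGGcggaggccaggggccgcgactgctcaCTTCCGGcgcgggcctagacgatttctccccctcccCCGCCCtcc
INTS3 mouse: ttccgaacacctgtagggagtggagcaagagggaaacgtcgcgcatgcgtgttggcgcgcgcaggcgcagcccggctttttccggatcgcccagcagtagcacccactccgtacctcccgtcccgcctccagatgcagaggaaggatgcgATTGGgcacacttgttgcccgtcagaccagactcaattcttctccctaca
NPR1 human: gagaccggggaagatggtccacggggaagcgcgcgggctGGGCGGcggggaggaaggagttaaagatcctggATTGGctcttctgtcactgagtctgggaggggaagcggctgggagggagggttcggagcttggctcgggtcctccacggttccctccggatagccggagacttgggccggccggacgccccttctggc
NPR1 mouse: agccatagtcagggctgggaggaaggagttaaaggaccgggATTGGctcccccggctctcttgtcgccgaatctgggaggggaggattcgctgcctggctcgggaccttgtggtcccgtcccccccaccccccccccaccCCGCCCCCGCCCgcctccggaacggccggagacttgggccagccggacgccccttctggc
The TTF2 window carried several CCAAT and GC boxes in both species, whereas the CD2 window carried a single CCAAT box in human and none of these letters in mouse. INTS3 and NPR1 carried CCAAT boxes in both species. GC boxes lay before NPR1 in both species and before INTS3 in human.

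The midpoints of the CD2 and TTF2 fragments lay 309 kb apart in human and 319 kb apart in mouse, with 2 other coding starts between the fragments. These fragments were joined with a score of 26.54 and a read count of 14 in GM12878 cells, and with 26.49 and 25 in mESCs. The midpoints of the INTS3 and NPR1 fragments lay 71.6 kb apart in human and 31.5 kb apart in mouse. In human the printed windows of these 2 genes lie closer together than the midpoints. The pair scored 27.19 on 83 reads in GM12878 cells and 19.30 on 51 reads in mESCs, and the same contact captured from the other promoter scored 22.42 and 16.26. NPR1 had further member contacts with RPS27, a ribosomal protein gene (20.21 and 18.51), and with SLC27A3, a fatty acid transport protein gene (15.94 and 36.04). Read counts in the lists are means weighted over replicates and rounded by the authors.

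The 377 gene pairs named 539 genes and fell into 196 loci, where a locus is a group of genes linked by member contacts. A locus held 1 pair in 145 cases and several pairs in 51, and 14 loci of more than 4 genes held 145 of the pairs. Several genes can share a fragment, and the 377 gene pairs rested on 330 pairs of fragments in human and 374 in mouse. Gene pairs that share a fragment pair have the same score and are not separate measurements. An annotated start of the named gene lay within the fragment for 530 of the 539 genes in hg19 and for all 539 in mm9. A gene can have several starts on different fragments, and the highest-scoring call was taken in each list. A pair can thus rest on different starts in human and mouse, which was not tested.

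The members' scores ran from 10.00 over a median of 14.24 to 92.67 in GM12878 cells, and from 10.01 over a median of 13.42 to 47.01 in mESCs. Their read counts ran from 6 to 170 with a median of 25 in GM12878 cells, and from 6 to 181 with a median of 20 in mESCs. The score was higher in GM12878 cells in 196 of the 377 pairs, and 15 pairs reached 20 or more in both. The ranks of the scores were weakly related between the lists. Spearman's rho of the scores was 0.17 over the 196 leading pairs and 0.05 over the 3513 pairs called in both, as a description across gene pairs within 2 lists that were cut at a minimum score. Of pairs at 10 or more in GM12878 cells whose symbols lay on 1 chromosome of the mESC list, 13.6 percent reached 10 in mESCs and 42.5 percent were called at all. In the other direction the shares were 14.0 and 37.9 percent. The same shares were not computed for pairs below 10, so that these values have no background. The members just inside the minimum were CCDC86-VPS37C (10.00 in GM12878 cells, 13.01 in mESCs), BMF-BUB1B (14.44 and 10.01) and GNB2L1-TRIM41 (10.01 and 34.43). Just outside lay STAP1-UBA6 (16.90 and 9.99), MRPL37-SSBP3 (11.66 and 9.98) and DMKN-UPK1A (10.86 and 9.97), so that pairs on both sides of the minimum differed by hundredths of a score unit.

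**Figure D1:**
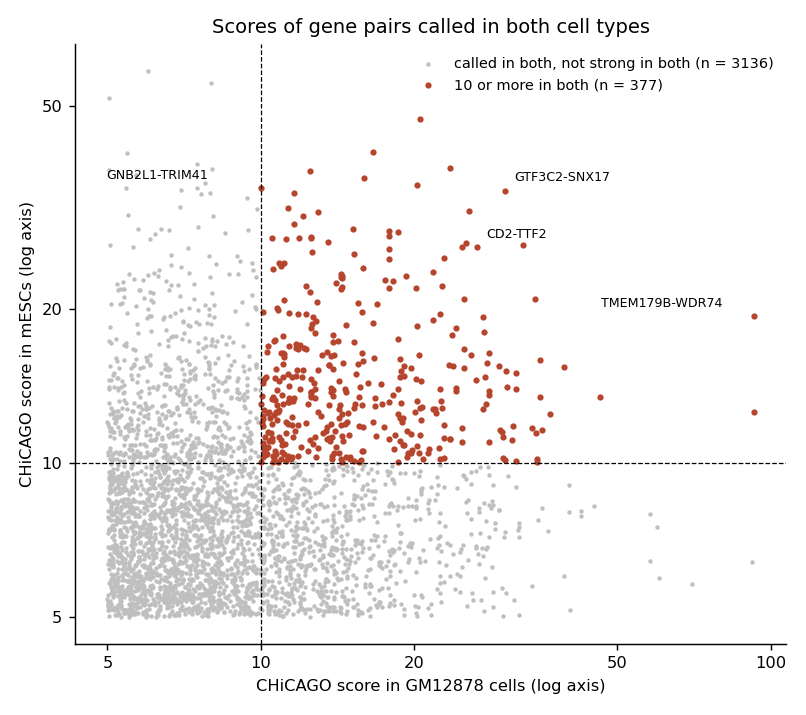
CHiCAGO score in GM12878 cells (x axis, log scale) against the score in mESCs (y axis, log scale) for the 3513 gene pairs called in both lists; dashed lines mark a score of 10. The 377 members fill the upper right of the plot, with TMEM179B-WDR74 at 92.67 in GM12878 cells and 19.41 in mESCs.

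The distance between the partners was similar in both genomes. It was measured between the midpoints of the fragments and had a median of 104 kb in human, with a range of 4.05 to 816 kb, and 85.2 kb in mouse, with a range of 5.94 to 1160 kb. The median pair called in both lists that was no member spanned 131 kb in human and 111 kb in mouse, and the median of all gene pairs was 167 and 153 kb. Because the score that chose the members is weighted by distance, shorter distances among members are partly built in. The human distance was the longer one in 286 of the 377 pairs, with a median ratio of human to mouse distance of 1.19. In 83.0 percent of the members the 2 distances lay within 1.5-fold of each other, and so did 80.0 percent of the other pairs called in both. Over the leading pairs of the 196 loci Pearson's r of the log distances was 0.91 and Spearman's rho 0.93, and rho was 0.95 over the pairs called in both that were no members. These correlations are across gene pairs whose spacing is a property of the genomes as much as of the contacts.

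**Figure D2:**
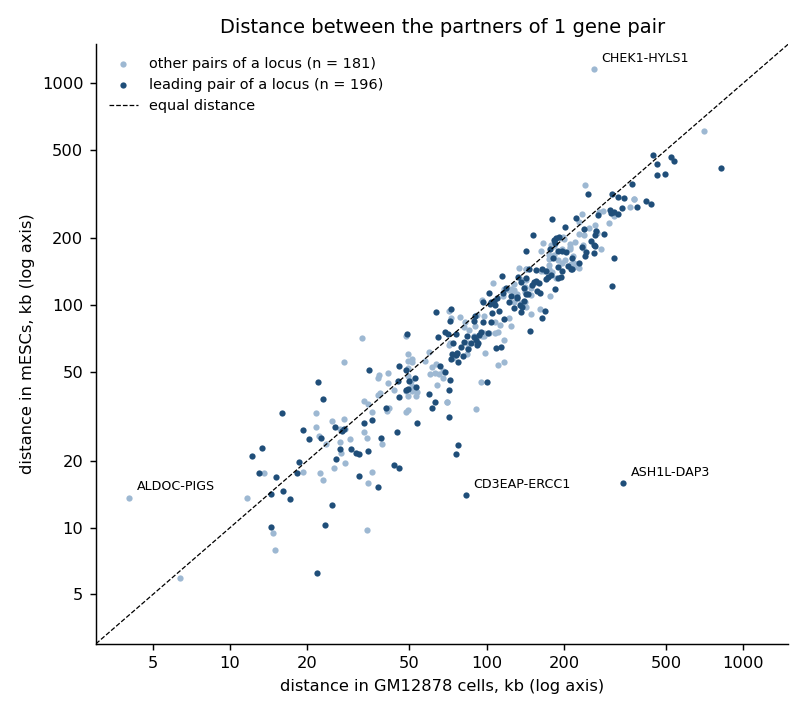
Distance between the 2 fragments of each member pair in GM12878 cells (x axis, kb, log scale) and in mESCs (y axis, kb, log scale); dark points are the leading pairs of the 196 loci and the dashed line marks equal distance. Most points follow the line slightly on the human side, and the named pairs ALDOC-PIGS, CHEK1-HYLS1, CD3EAP-ERCC1 and ASH1L-DAP3 lie farthest from it.

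The shortest contacts by the mean of both distances were LY6G6E-LY6G6F (6.37 and 5.94 kb), ALDOC-PIGS (4.05 and 13.6 kb) and SLC3A2-WDR74 (14.9 and 7.93 kb). LY6G6E and LY6G6F encode surface proteins of the LY6 family in the class III region of the major histocompatibility complex. The longest were CHEK1-HYLS1 (261 kb in human and 1160 kb in mouse), HSPA9-MATR3 (700 and 608 kb) and SMOC2-THBS2 (816 and 415 kb). CHEK1 is a checkpoint kinase of the DNA damage response and HYLS1 a protein of centrioles and cilia. SMOC2 and THBS2 both encode secreted proteins of the extracellular matrix, and they scored 13.86 on 9 reads in GM12878 cells and 13.87 on 22 reads in mESCs. No other coding start lay between them in either species. The contacts of ASH1L, a histone methyltransferase gene, with DAP3, a mitochondrial ribosomal protein gene, spanned 341 kb in human and 15.9 kb in mouse. Whether the same starts were joined in both species was not tested.

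Adjacent and distant neighbours were both present. No coding start lay between the partners in 89 pairs in human and 90 in mouse, the median number was 2 in both, and the highest was 28 in human and 27 in mouse. More than 4 coding starts lay between the partners in 94 pairs in each species. The relative orientation of the partners was the same in human and mouse in all 374 pairs for which it was known, against 98.9 percent of the 3128 other pairs called in both. In mouse, 47.9 percent of the members were transcribed in tandem, 25.1 percent towards each other and 27.0 percent away from each other, and the shares among the other pairs were 53.1, 24.3 and 22.7 percent.

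The top-ranked locus, by the lower of the 2 scores of its leading pair, joined GTF3C2 and SNX17. GTF3C2 encodes a subunit of TFIIIC, which recruits RNA polymerase III, and SNX17 a sorting nexin of endosomes. The pair scored 30.07 on 46 reads in GM12878 cells and 34.10 on 62 reads at 17.7 kb in mESCs. MYO1G, a class I myosin of blood cells, and TBRG4, a regulator of mitochondrial RNA, scored 32.57 in GM12878 cells and 26.66 in mESCs. Their contact was also called from the other promoter, at 12.37 and 11.30. PIGS, which attaches lipid anchors to proteins, and SPAG5, a spindle protein, scored 25.53 and 31.12. HUS1, a part of the checkpoint clamp at damaged DNA, and UPP1, uridine phosphorylase, scored 25.29 and 26.95 at 110 and 108 kb.

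Several leading pairs held a gene that acts in the synthesis, modification or decay of RNA or in protein synthesis. UBTF, a transcription factor of ribosomal RNA genes, and SLC25A39, a mitochondrial carrier, scored 22.80 and 25.14 at 112 and 94.3 kb, and the human contact had the same score from both promoters. VARS, valyl-tRNA synthetase, and LY6G6F scored 20.12 and 21.96. FARSA, a subunit of phenylalanyl-tRNA synthetase, and KLF1, a transcription factor of red blood cells, scored 18.57 and 28.24. EMG1, which methylates ribosomal RNA, and PTPN6, a phosphatase of blood cells, scored 27.38 and 17.99. EXOSC4, a subunit of the RNA exosome, and PLEC, a cytoskeletal linker, scored 22.43 and 19.52. PCIF1, which methylates the mRNA cap, and PLTP, phospholipid transfer protein, scored 16.58 and 40.54. SRP14, of the signal recognition particle, and BUB1B, a kinase of the spindle checkpoint, scored 28.01 and 16.41 at 119 kb in both species. HIC1, a transcriptional repressor, and SMG6, a nuclease of nonsense-mediated decay, scored 25.76 and 16.25.

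Other leading pairs joined signalling, chromatin and structural genes. SMARCA5, the ATPase of ISWI chromatin remodellers, and USP38, a deubiquitinase, scored 21.73 on 15 reads at 336 kb and 23.65 on 11 reads at 275 kb. ESYT1, a tether of the endoplasmic reticulum, and MYL6B, a myosin light chain, scored 20.23 and 34.94. DHRS13-TRAF4 scored 19.21 and 23.25, and TRAF4 is an adaptor of the TNF receptor pathway. DYRK1A, a protein kinase, and DSCR3, a trafficking protein, scored 17.79 and 28.43. BCAN, a proteoglycan of the brain, and CRABP2, which carries retinoic acid, scored 17.53 and 22.81. NME5-WNT8A scored 16.87 and 20.46, and WNT8A is a ligand of the Wnt pathway. CAPG, an actin-capping protein, and MAT2A, which makes S-adenosylmethionine, scored 25.02 and 16.73. NEUROG2, a proneural transcription factor, and TIFA, an adaptor of NF-kB signalling, scored 16.60 and 18.77. FAM118B-HYLS1 scored 16.67 and 16.06 at 324 and 307 kb.

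Of the 22 genes with at least 4 member partners, MAST1 and TMEM179B had 8 each, GAPDH and TUT1 7 each, and SYCE2 and VARS 6 each. ACAP1, DHRS1, ESYT1, FXYD7, KLF1, MAFG, TMEM223 and ZBTB4 had 5, and CHD4, DMKN, FXR2, GCDH, IPO4, NFKBIL1, SLC3A2 and WDR74 had 4. Partners were counted as genes, and genes on the same fragment are not separate contacts. For ACAP1 in human, POLR2A and ZBTB4 had the same score (11.36), read count (23) and distance (143 kb). Over all 539 genes the highest-scoring partner was the same gene in both lists for 236, or 43.8 percent, counting partners whose symbol was in both lists. The median gene had 2 such partners at 10 or more in each list, of which at least 1 was shared by the rule. For the 112 genes with just 1 such partner in each list, the match was fixed by the rule. The share was not computed for other genes.

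The locus of TMEM179B and WDR74 held 14 genes and 20 member pairs within 467 kb of human chromosome 11 and 368 kb of mouse chromosome 19. Of its 91 possible gene pairs, 32 reached 10 in GM12878 cells and 46 in mESCs. WDR74, which acts in ribosome assembly, made the contact with the highest human score of all members with TMEM179B and TMEM223, which share a human fragment, at 92.67 on 79 reads and 52.8 kb. In mESCs these 2 genes lay on separate fragments and scored 19.41 and 12.59 with WDR74. TUT1, a terminal uridylyl transferase, reached TMEM179B at 211 kb in human and 179 kb in mouse with scores of 28.04 and 13.82. SLC3A2, the heavy chain of amino acid transporters, and WDR74 had the highest human read count of the members, 170, at a score of 11.20, and 153 reads at 27.42 in mESCs. Other members here were POLR2G and TAF6L of the transcription machinery, INTS5 of the Integrator complex, EEF1G of translation elongation and MTA2 of the NuRD complex.

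The locus of FARSA and KLF1 held 12 genes and 19 member pairs within 333 kb of human chromosome 19 and 246 kb of mouse chromosome 8. MAST1, a protein kinase, joined 8 partners, with scores from 12.07 to 31.17 in GM12878 cells and from 10.25 to 30.44 in mESCs. KLF1 shared its human fragment with GCDH, a mitochondrial dehydrogenase gene, and CALR and FARSA shared another. CALR encodes a chaperone of the endoplasmic reticulum. SYCE2, of the synaptonemal complex, scored 17.86 with CALR on 96 reads in GM12878 cells and 22.02 in mESCs. DHPS, which modifies the translation factor EIF5A, and TNPO2, a nuclear import receptor, scored 20.58 and 14.46.

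The locus of GAPDH and IFFO1 held 11 genes and 16 member pairs, over 411 kb in human and 416 kb in mouse. GAPDH, the glycolytic enzyme, scored 23.43 in GM12878 cells and 37.67 in mESCs with IFFO1, an intermediate filament gene. With NCAPD2, a condensin subunit, it scored 20.51 and 47.01, the highest mESC score of the members. Its contact with VAMP1, a vesicle fusion protein, scored 15.79 and 19.73. Genes of lymphocyte surface proteins took part in 6 member pairs of this locus. CD27 scored 22.02 and 12.51 with GAPDH and 10.20 and 10.37 with VAMP1. CD4 scored 14.46 and 15.66 with USP5, a deubiquitinase, and LAG3 scored 11.52 and 11.87 with ING4, a chromatin reader. CHD4, the ATPase of the NuRD complex, and USP5 scored 23.83 and 15.47 at 285 and 265 kb.

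**Figure D3:**
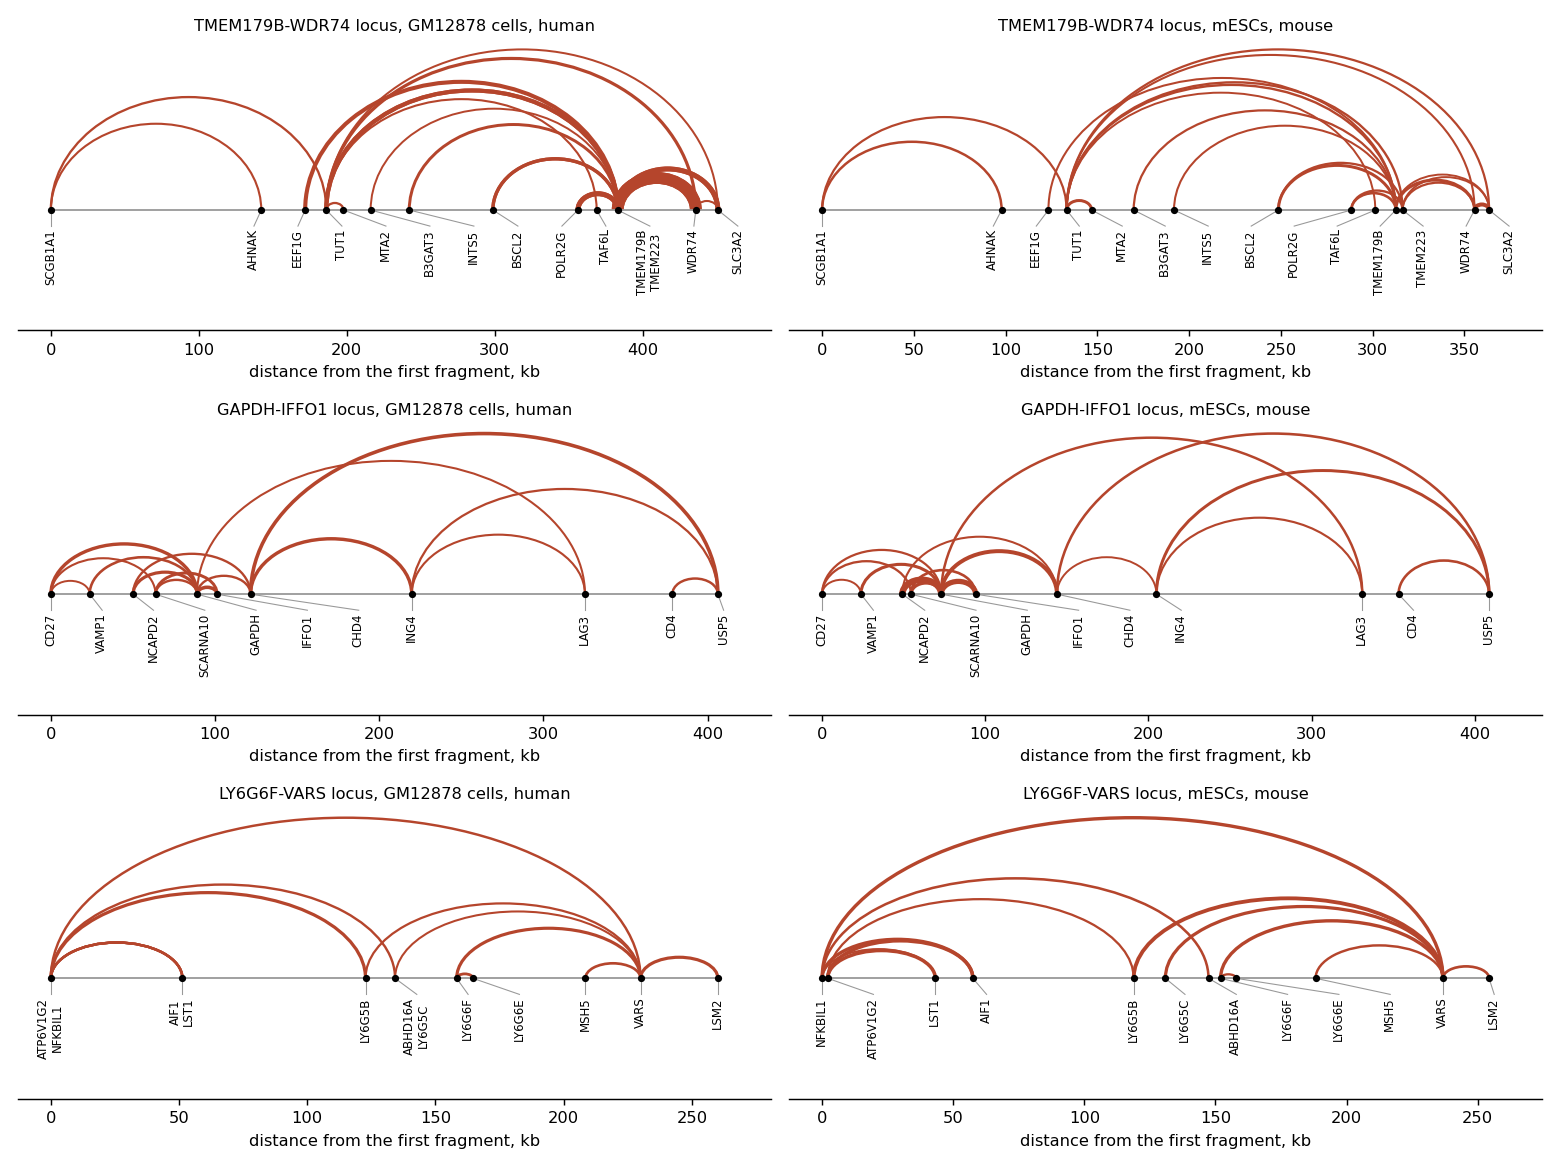
Member contacts of the TMEM179B-WDR74, GAPDH-IFFO1 and LY6G6F-VARS loci in GM12878 cells (left) and mESCs (right), drawn as arcs whose width rises with the CHiCAGO score; the x axis is the distance in kb from the first fragment, with the mouse map turned where needed so that the genes run the same way, and names side by side at a point share a fragment. The genes follow the same order in both species, and the widest arc is the 92.67 contact of WDR74 with the fragment of TMEM179B and TMEM223.

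The FXYD3-FXYD7 locus held 14 genes and 15 member pairs, over 498 kb in human and 389 kb in mouse. FXYD3, FXYD5 and FXYD7 encode small regulators of the sodium pump. FXYD3-FXYD7 scored 24.83 and 26.46, and FXYD3-FXYD5 shared the human fragment pair at 24.83 and scored 10.97 in mESCs. FXYD7 also reached LSR, a receptor of lipoproteins and tight junctions (13.88 and 10.47). FFAR2 and FFAR3, receptors of short-chain fatty acids, scored 34.53 at 90.6 kb in GM12878 cells and 20.94 at 34.0 kb in mESCs. FFAR1, the receptor of longer fatty acids, and DMKN, an epidermal secreted protein, scored 39.29 and 15.37.

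The LY6G6F-VARS locus held 12 genes and 13 member pairs in the class III region of the major histocompatibility complex, over 268 kb in human and 260 kb in mouse. VARS reached NFKBIL1, an inhibitor-like protein of NF-kB, at 230 and 237 kb with scores of 14.39 and 22.09. With LSM2, of spliceosomal snRNPs, it scored 20.37 and 16.24, and with MSH5, of meiotic recombination, 16.23 and 14.30. AIF1 and LST1, genes of macrophages and other leukocytes, shared a human fragment and were joined to a fragment with ATP6V1G2 and NFKBIL1 at 14.33 on 17 reads. In mESCs AIF1 scored 23.05 with ATP6V1G2, a subunit of the vacuolar proton pump, and 21.85 with NFKBIL1. LST1 scored 23.37 and 10.16 with the same genes.

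The FXR2-MPDU1 locus held 14 genes and 15 member pairs, over 358 kb in human and 330 kb in mouse. FXR2, an RNA-binding paralogue of the fragile X protein, and MPDU1, of protein glycosylation, scored 15.25 and 25.66. FXR2 also scored 11.94 and 13.96 with SOX15, a transcription factor. ACAP1, a membrane traffic protein, had 5 partners here, with distances of 143 to 275 kb in human and 129 to 263 kb in mouse. They were TNFSF12, a TNF ligand (14.67 and 13.76), SENP3, a SUMO protease (13.71 and 14.03), POLR2A, the largest subunit of RNA polymerase II (11.36 and 19.60), ZBTB4 (11.36 and 14.14) and FXR2 (15.60 and 11.82). EIF5A, a translation factor, and ZBTB4, a repressor that binds methylated DNA, scored 10.53 and 27.52.

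DHRS1, a dehydrogenase, had 5 partners within the DHRS1-IPO4 locus of 8 genes. Its contact with IPO4, an import receptor, scored 27.50 and 14.71, that with TINF2, of the telomere-protecting shelterin complex, 20.53 and 12.77, and that with REC8, a meiotic cohesin, 16.78 and 11.29. In the locus of NPB and SLC25A10, MAFG, a small MAF transcription factor, had 5 partners. Among them FASN, fatty acid synthase, scored 13.70 and 16.16, and PCYT2, of phospholipid synthesis, 10.08 and 14.30. FASN and PCYT2 also scored 20.07 and 12.56 with each other, at 200 kb in both species. In the locus of ANG and TEP1, the ribonuclease genes ANG and RNASE4, which share a fragment in both species, scored 13.57 and 15.56 with TEP1, a telomerase-associated protein, and 12.53 and 13.74 with RNASE11.

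By role, assigned by hand to each gene from general knowledge, 87 of the 539 genes (16.1 percent) belonged to translation, ribosome biogenesis and RNA processing. Cell signalling followed with 77, metabolism and mitochondria with 60, transcription factors and chromatin with 60, and membrane traffic and transport with 49. The roles of 75 genes were other or not settled. No comparable assignment was made for genes outside the members, so that these counts have no background and no enrichment is implied. The 2 partners belonged to the same of the 11 named groups in 51 of the 283 pairs in which both had a settled role.

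**Figure D4:**
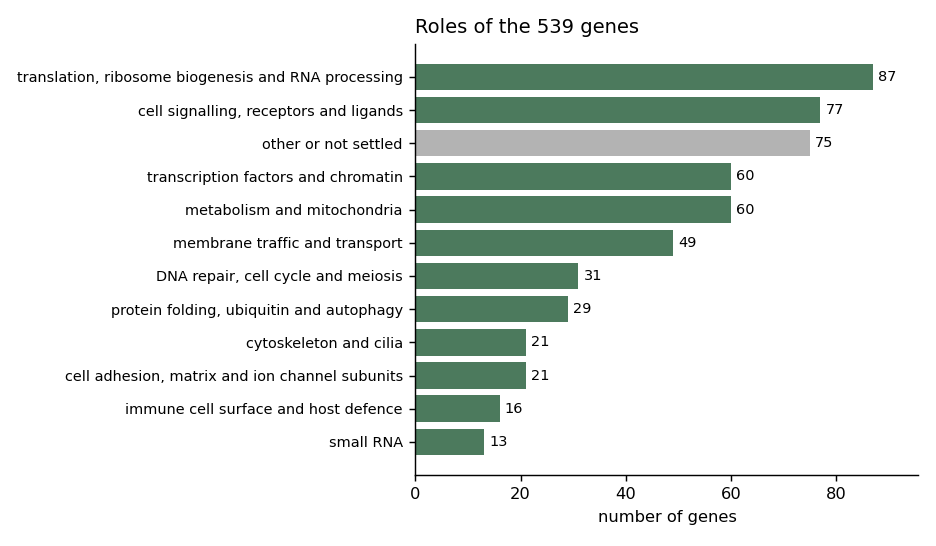
Number of member genes (x axis) in each of the role groups assigned by hand (y axis), 539 genes in all. Translation, ribosome biogenesis and RNA processing is the longest bar with 87 genes and small RNA the shortest with 13.

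Within translation and RNA processing, the contacts included aminoacyl-tRNA synthetases, ribosomal proteins and helicases. BRIX1, of ribosome assembly, and DNAJC21, a cochaperone of ribosome assembly, scored 15.12 and 28.65. EIF3G of translation initiation and DNMT1, the maintenance DNA methyltransferase, scored 14.24 and 14.42. ETF1, the release factor, and HSPA9, a mitochondrial chaperone, scored 10.51 and 11.90. EIF4A2-TBCCD1 scored 11.04 and 17.73, DYRK1B-FBL 11.07 and 16.40, and PCNP-RPL24 19.02 and 12.24. FBL encodes the methyltransferase fibrillarin of the nucleolus. KRR1, of the small ribosomal subunit, and PHLDA1 lay 524 and 465 kb apart and were called from both promoters in both lists, at 14.73 and 11.89 in GM12878 cells and with a lower score of 11.70 in mESCs.

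Genes of DNA repair, cell cycle and meiosis numbered 31. ATM, the kinase of the double-strand break response, and DDX10 scored 12.36 at 438 kb and 13.02 at 287 kb. ERCC1, a repair nuclease, and CD3EAP, of RNA polymerase I, scored 27.59 at 83.2 kb and 13.05 at 14.1 kb. MCM4, of the replicative helicase, and UBE2V2, of ubiquitin-dependent repair, scored 10.95 and 10.16. CDK2-DNAJC14 scored 12.76 and 17.91, CFLAR-ORC2 14.23 and 10.46, and CCNE2-PLEKHF2 20.40 and 10.44. RRM1, the large subunit of ribonucleotide reductase, scored 18.70 and 12.22 with STIM1, the calcium sensor of the endoplasmic reticulum, and 10.61 and 10.22 with NUP98, a nucleoporin. POLD1, the catalytic subunit of DNA polymerase delta, and SPIB, an ETS factor of B cells, scored 10.44 at 31.8 kb and 11.42 at 17.0 kb.

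Several regulators of development had member contacts in both cell types. HEY2, a Notch target, and HDDC2 scored 34.65 on 39 reads at 443 kb in GM12878 cells and 11.45 on 13 reads at 474 kb in mESCs. NEUROD2, a neuronal transcription factor, and PPP1R1B, a phosphatase inhibitor of striatal neurons, scored 36.84 and 12.48. HOXC5 and SMUG1, a uracil-DNA glycosylase gene, scored 10.83 and 24.63. DLX3-TAC4 scored 17.86 and 13.12 at 146 kb in both species. HAND1, of heart and trophoblast development, and SAP30L, of a histone deacetylase complex, scored 10.56 and 10.31. MIXL1, of mesendoderm, and ACBD3 scored 14.84 and 12.53, and MESP1, of cardiac mesoderm, and AP3S2 10.13 and 10.70. The immediate-early gene FOS and TMED10 scored 17.80 and 11.13 at 104 kb in both species, and FOSB and CD3EAP 14.91 and 11.33.

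Genes known from lymphocytes and other blood cells also had member contacts in both cell types. CD79B, a signalling chain of the B cell receptor, and ICAM2 scored 12.26 and 11.97 at 85.6 and 77.2 kb. POU2F2, an octamer factor of B cells, scored 10.77 and 12.11 with CIC, a repressor, and 10.77 and 20.07 with PAFAH1B3. PIM1, a survival kinase, and MTCH1 scored 11.74 and 16.77. TRAF1, of TNF receptor signalling, and PHF19, of Polycomb, scored 27.77 and 15.69. NFKBID, an atypical NF-kB inhibitor, and ZBTB32, a repressor of plasma cell differentiation, scored 12.64 and 10.88. BST2, the antiviral protein tetherin, and TMEM221 scored 30.39 and 14.06. CRTC3-FES scored 18.14 and 13.54, and NFE2, of blood cell development, and GPR84 31.68 and 13.97.

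HSP90AB1, a cytosolic chaperone, scored 12.96 and 31.02 with CAPN11, and 10.06 and 13.52 with AARS2, mitochondrial alanyl-tRNA synthetase. SREBF1, the regulator of lipid synthesis, and RAI1 scored 18.22 and 10.65. SOD2, of the mitochondrial defence against superoxide, and TCP1, a chaperonin subunit, scored 13.47 and 11.73. ATP5D, of the ATP synthase, and ABCA7, a lipid transporter, scored 15.49 and 15.57 at 197 and 143 kb. UROD, of haem synthesis, and HPDL scored 11.29 on 6 reads in GM12878 cells and 31.46 on 25 reads in mESCs. SQLE, of cholesterol synthesis, and TATDN1 scored 10.55 and 23.98 at 461 and 384 kb. MARVELD2 and OCLN, both proteins of tight junctions, scored 14.97 and 10.17.

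Contacts between genes of the same class were few, so that their shares are imprecise. By 22 gene classes set by symbol, 3 of the 377 members (0.796 percent) joined 2 genes of the same class, against 1.95 percent of the other pairs called in both, 1.80 percent of those at 10 or more in 1 list alone and 2.07 percent of those below 10 in both. The exact 95 percent binomial interval of the members' share, 0.164 to 2.31 percent, held these values, and counted per locus the members' share was 1.53 percent. Of the 539 member genes, 479 belonged to no class, as did 3001 of the 3413 genes of all pairs called in both. A pair with such a gene could not count as same-class. The 3 same-class pairs were RPL36AL-RPS29, MIR326-SNORD15A and PCDHA3-PCDHB1. The ribosomal protein genes RPL36AL and RPS29 scored 15.85 on 61 reads and 24.01 on 47 reads at 19.3 and 27.4 kb. The clustered protocadherins PCDHA3 and PCDHB1, adhesion proteins of neurons, scored 11.08 on 16 reads at 248 kb and 24.64 on 13 reads at 318 kb. By symbols that share their first 4 letters, the count was 6, or 1.59 percent, against 1.88 percent.

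Small RNA genes numbered 13, of which 6 were microRNAs, and the mature sequences of 5 of these were found in RefSeq (human, GRCh38.p14) and are shown to identify them, with the seed, bases 2 to 8, in capitals.
hsa-miR-375-3p: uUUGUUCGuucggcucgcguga
hsa-miR-375-5p: gCGACGAGccccucgcacaaacc
hsa-miR-326: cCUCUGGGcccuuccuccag
hsa-miR-877-3p: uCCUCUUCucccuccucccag
hsa-miR-877-5p: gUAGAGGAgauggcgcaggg
hsa-miR-190b-5p: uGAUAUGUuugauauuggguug
hsa-miR-194-5p: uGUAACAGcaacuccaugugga
No seed was shared among them. miR-375, known from endocrine pancreas, had the contact with the highest lower score, CCDC108-MIR375, at 22.60 on 63 reads in GM12878 cells and 22.20 on 19 reads in mESCs. Its neighbours CRYBA2 and FEV, a transcription factor of serotonergic neurons, scored 33.79 and 29.33 with CCDC108 in mESCs and shared the human fragment pair at 11.59. MIR877, which lies within an intron of ABCF1, scored 23.67 and 17.76 with ABCF1 at 14.5 and 10.1 kb. MIR150, of lymphocytes, and SCAF1 scored 10.85 and 14.43, EPRS-MIR194-1 15.84 and 11.73, and ATP8B2-MIR190B 13.57 and 11.16. SNORD104 and ICAM2, the leading small nucleolar RNA pair, scored 24.96 and 20.94 at 124 and 110 kb. RPL3-SNORD83B had the highest mESC read count of the members, 181, at a score of 11.41 and 6.24 kb. SNORA75 and SNORD111 are symbols that the lists also place on another chromosome, so that their pairs, ARMC9-SNORA75 and DDX19A-SNORD111, are uncertain.

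Promoter letters were counted in the member genes, in other genes with contacts called in both species and in all coding genes. The first 2 groups lay close to each other and apart from all coding genes for the GC box in both species. In the 300 bases from 250 before to 49 after the start, the letters GGGCGG on either strand were found in 71.8 percent of 525 coding member genes in human, in 72.7 percent of 2825 other genes of pairs called in both and in 61.0 percent of all 20144 coding genes. In mouse the shares were 63.1, 61.7 and 44.8 percent. TATAAA was found in 6.86, 6.37 and 9.77 percent in human and in 8.75, 7.99 and 13.4 percent in mouse. CCGGAAG, the core of ETS factor sites, was found in 18.1, 15.5 and 14.0 percent in human and in 17.1, 14.8 and 11.0 percent in mouse. CCAAT was found in 36.0, 34.9 and 36.0 percent in human and in 36.9, 36.8 and 37.8 percent in mouse. Longer letters of NRF1, YY1 and ZNF143 sites were each found in at most 3.24 percent of any group. Within 2000 bases on each side of the start, the CTCF core was found in 33.3, 32.1 and 27.7 percent in human and in 26.8, 27.7 and 20.8 percent in mouse. Matches of different letters were counted apart even where they overlapped. The median GC content was 65.3 percent for member genes and 66.3 percent for the other genes in human, and 59.5 and 60.0 percent in mouse. Aligned over their whole length, the human and mouse windows of 538 member genes were identical at a median of 62.3 percent of the 300 bases, against 63.3 percent for 2871 other genes. MBD6, at 92.0 percent, NEUROD2, at 91.0 percent, and CASQ1, at 90.0 percent, were the most alike, and ASH1L, at 46.0 percent, the least. Unrelated windows were not aligned, so that identity without common descent is not known. The start was chosen separately in each species, and the 2 windows of a gene need not hold the same start. A window also need not lie in the fragment of the contact.

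Both promoters of a pair were baits in nearly all members, and the contact was often called in just 1 direction. The second fragment was itself a bait in the list for 376 pairs in human and 373 in mouse. The highest-scoring fragment pair was called from both baits in 181 pairs in GM12878 cells and in 231 in mESCs, with 10 or more from both in 66 and 64. With 10 or more required in each direction in both lists, 18 pairs were left. Among them were TMEM179B-WDR74, INTS3-NPR1, MYO1G-TBRG4, GAPDH-NCAPD2, SLC25A39-UBTF, CHD4-USP5, CALR-SYCE2 and CAPG-MAT2A.

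The mESC Hi-C library without capture gave a further reading of the mouse contacts. It is the library from which captured material came, so that it is not independent of the mESC scores. Of the 376 members within 1 Mb in mouse, 94 (25.0 percent) had the midpoints of their fragments in a 25-kb bin pair with an FDR under 0.05, and the exact 95 percent binomial interval, which covers counting error only, was 20.7 to 29.7 percent. The interval takes gene pairs as independent and is too narrow, because several gene pairs of a locus can lie in the same bin pair. The share was 18.5 percent of the 5866 other mESC gene pairs at 10 or more, 10.5 percent of the other pairs called in both and 4.54 percent of the mESC pairs below 10. By distance, it was 29.6 percent of the members below 50 kb, 27.4 percent from 50 to 100 kb, 19.8 percent from 100 to 200 kb and 22.0 percent from 200 kb. Among the other mESC gene pairs at 10 or more it was 19.3, 24.2, 17.0 and 14.6 percent. The intervals of these 2 groups were apart below 50 kb and overlapped at each distance from 50 kb. A pair whose midpoints lay in 1 and the same bin alone was counted as not found. Where several bin pairs held a contact, the one with the most reads was taken. GNB2L1-TRIM41 had the highest Hi-C read count, 182 against 65.2 expected, followed by DHPS-TNPO2 with 133 against 46.9. CD2-TTF2 had 26 reads, 8.16 times the expected number, and SLC25A39-UBTF 56 reads, 5.40 times. GTF3C2-SNX17, the top-ranked pair, had 30 reads, 2.41 times the expected number, and an FDR above 0.05.

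**Figure D5:**
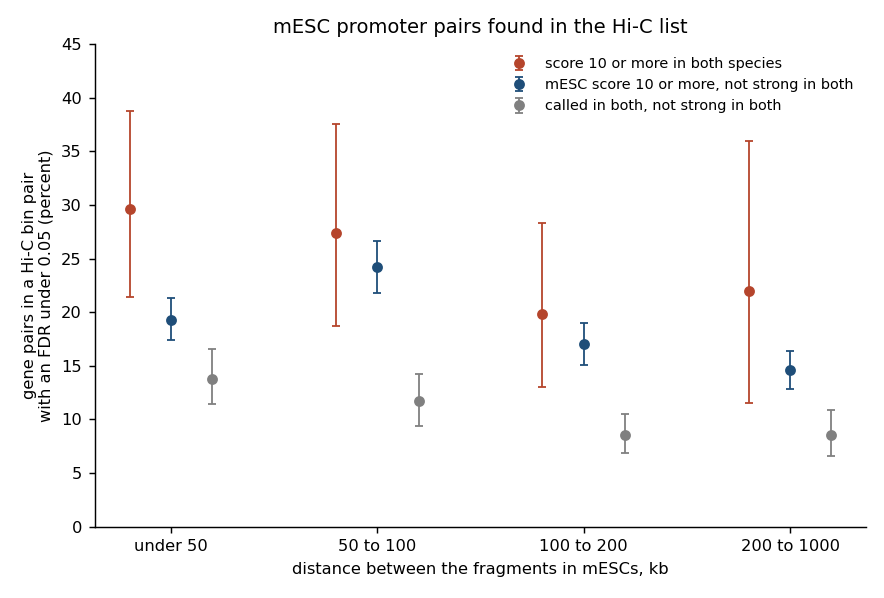
Share of mESC gene pairs that lie in a 25-kb Hi-C bin pair with an FDR under 0.05 (y axis, percent) by the distance between the fragments (x axis, kb), with exact 95 percent binomial intervals, for the members, for other mESC pairs at 10 or more and for other pairs called in both lists. From the shortest to the longest distances the members lie at 29.6, 27.4, 19.8 and 22.0 percent, above the other 2 groups at each distance. From 50 kb on, the members' intervals overlap those of the other mESC pairs at 10 or more. The intervals are too narrow because gene pairs can share a bin pair.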

How the data were processed

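The authors aligned the reads with HiCUP (Bowtie 1.1.0 per the submitters' processing notes) to hg19 and mm9, merged the replicates and called interactions with CHiCAGO. Per the labels and the file layout, each deposited list holds a score and a weighted, rounded mean read count per fragment pair. The score is no raw count, and no count model was run. The deposited Hi-C list, made with HOMER 4.7, holds read counts, expected counts (a signal from its background model) and adjusted p-values, and its remaining columns and the 1-Mb Hi-C list were not used. The deposited browser lists repeat the score.

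Names were split at ; in the human list and at | and , in the mouse list, transcript suffixes were removed, and the highest-scoring call was kept for each gene pair. The reading of the lists was tested on simulated data. Gene starts came from GENCODE on the build of the files (GRCh37, NCBIM37), older human symbols through RefSeq. Protein sequences were not used here. The members, classes, role groups and the genes named were chosen with earlier results of these data known. Named by rule were the leading pairs of the first 30 loci, same-class pairs, the 3 longest and 3 shortest pairs, pairs beside the minimum and genes with at least 4 partners, and other genes were named after their values were seen. Analyses used Python 3.11.15, pandas 2.3.3, networkx 3.6.1, scipy 1.17.1 and Biopython 1.88. Alternatives covered the score minimum, list, read count, direction, names, distance and Hi-C threshold.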

Additional observations from a re-analysis of the deposited data

How the results depend on the processing

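No paired analysis was possible because the replicates were merged before calling, and for the same reason no replicate could be left out. The browser lists, a read count of at least 10, leaving out small RNAs and symbols on several chromosomes, adding pairs of promoters of the same gene and adding HIST pairs kept the counts of pairs and loci within 1.5-fold and both medians and both shares within their 95 percent intervals. With a score minimum of 7.5, 12 and 15 there were 1066, 178 and 64 pairs in 430, 106 and 45 loci, and the Hi-C share was 17.5, 31.5 and 40.6 percent. The median distance at 12 and 15 was 84.5 and 70.1 kb in human and 72.3 and 44.1 kb in mouse. Calls in both directions gave 18 pairs in 11 loci at 68.5 and 60.1 kb, with a same-class share of 0.00 percent and a Hi-C share of 72.2 percent. Pairs at least 100 kb apart numbered 165 in 111 loci, with medians of 190 and 163 kb by construction. Every listed Hi-C bin pair gave 52.9 percent. Chosen after seeing the data, bins by name gave 20.5 percent, names split at ; alone 68 pairs in 48 loci at 135 and 114 kb with a same-class share of 2.94 percent, and names split at ; and | gave 156 pairs in 88 loci, 98.9 kb in mouse and a Hi-C share of 32.9 percent. Counted per locus, the same-class share was 1.53 percent. The Hi-C shares of the other groups of gene pairs were not recomputed with bins by name. The number of members thus changed with the minimum score, the direction of the calls, the minimum distance and the reading of the names. The effect of depth was not tested.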

Other observations

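Pairs with a symbol starting HIST, left out by the rule, numbered 61 at a score of 10 or more in both lists, and in 60 of them both genes were replication-dependent histone genes. Their median distance was 103 kb in human and 123 kb in mouse, and their highest scores were 80.75 and 83.83. No pair of promoters with the same gene symbol reached 10 in both lists. A small RNA within another gene, such as MIR877 in ABCF1, counted as a separate gene.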
